A study of Mus musculus with 62 samples.

Results

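10 genes of muscle atrophy and of FoxO and glucocorticoid signalling were followed in mouse skeletal muscle and myotubes in which ChREBP was removed or added. They were Trim63, Fbxo32, Ddit4, Foxo1, Foxo3, Klf15, Fkbp5, Cdkn1a, Gadd45a and Mt2. The list was chosen from earlier results on these libraries, in which Ddit4 and Trim63 had been seen to be higher in knockout than in control muscle on a high-fructose diet. That contrast is therefore described here without a test. All 10 were found by symbol among the 29239 symbols of the chow table, the 21936 of the table of hypoxia and high-fructose muscle, and the 17896 of the C2C12 table. The AAV table, with 20956 symbols, gave 9 of them, and Mt2 was not analysed there.

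FoxO transcription factors are held in the cytoplasm by insulin and Akt signalling and enter the nucleus when that signal falls. In muscle they switch on the ubiquitin ligases Trim63 (MuRF1) and Fbxo32 (atrogin-1), which mark muscle proteins for the proteasome. Glucocorticoids act on the same genes through their receptor, which also induces Klf15, Fkbp5, Ddit4 and the metallothioneins. ChREBP, the product of Mlxipl, is a glucose-responsive transcription factor that binds DNA with its partner Mlx at paired E-box-like motifs.

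The series held 62 RNA-seq libraries in 14 groups. F/F mice carried loxP sites around exon 8 of the ChREBP gene and no Cre. Their littermates, ChMKO, also carried Mck-cre, which is active in striated muscle. On chow, gastrocnemius (GC) and soleus (SOL) of both genotypes gave 5 libraries each. GC of both genotypes also gave 4 libraries each from mice in normoxia (Norm), from mice kept for 2 weeks in hypoxia at a simulated altitude of 5500 m (Hypo), and from mice fed for 3 months on a diet with 68% of its calories as fructose (HFrD). Mice were males of 8 to 10 weeks unless stated otherwise in the methods. In wild-type C57BL/6J mice, GC was injected with AAV9 carrying full-length mouse ChREBP behind a CMV promoter (AAV-ChREBP) or with its control (AAV-CON), and taken after 14 days, 5 libraries each. C2C12 is a mouse myoblast line. Stable ChREBP overexpressing cells (Ch-OE) and vector controls were taken on day 7 of differentiation in 2% horse serum, 4 libraries each. The methods call the replicates of each group independent, but the labels do not say whether the C2C12 libraries came from separate cultures, and the p-values there measure the spread between these libraries. The labels name no separate control libraries for the HFrD groups and do not say how long the Norm mice were kept. HFrD was therefore set against Norm, and diet, age and other differences between these library sets cannot be told apart.

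The deposited values were FPKM, fragments scaled to transcript length and sequencing depth, so levels can be compared between genes. In the 24 libraries of the stress table whole reads could be recovered from the FPKM, 14473169 to 23460511 a library. Depth in the other tables is unknown. The mean level of Mlxipl was in the direction of the labels in each group: mean FPKM was 15.7 ± 2.53 in GC of ChMKO and 24.9 ± 4.10 in GC of F/F, 38.4 ± 7.13 in SOL of ChMKO and 53.4 ± 7.51 in SOL of F/F (SD, n = 5), 4.40 ± 0.102 in HFrD ChMKO and 9.26 ± 1.13 in HFrD F/F (SD, n = 4), 83.5 ± 19.1 in AAV-ChREBP and 11.3 ± 0.749 in AAV-CON (SD, n = 5), and 13.4 ± 0.409 in Ch-OE cells and at most 0.02 in each vector control. On chow the genotypes overlapped in SOL, where 1 ChMKO library at 46.1 FPKM was above 1 F/F library at 43.8 FPKM. In GC all ChMKO libraries, at 12.5 to 18.5 FPKM, were below all F/F libraries, at 20.4 to 30.3 FPKM. Mlxipl passed in neither muscle (limma, adjusted p = 0.413 in GC and 0.384 in SOL). By qRT-PCR the authors report lower total ChREBP mRNA in GC and SOL of ChMKO. A level for the whole gene does not separate exon 8, and which transcripts or cells the Mlxipl of the knockout came from was not tested. The summed level of 5 myofiber markers (Acta1, Ckm, Mb, Pvalb and Actn3) was 24066 to 56904 FPKM in the muscle libraries and 436 to 577 FPKM in the C2C12 libraries. Bulk RNA cannot tell a change in RNA per cell from a change in the number of cells of a type.

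Promoter sequences are shown for the members on which the results turn most. Trim63 and Ddit4 are the genes by which the list was chosen. Klf15 passed for HFrD against Norm and SOL against GC in ChMKO. Mt2 had the largest log2(FPKM + 1) difference of the members in C2C12 cells. The sequences are RefSeq promoters of GRCm38.p6 and hold the 250 bases before the start site, 5′ to 3′ on the strand of the gene. The window of Trim63 is chr4:134314870-134315119 on the plus strand, that of Ddit4 chr10:59951771-59952020 on the minus strand, that of Klf15 chr6:90462326-90462575 on the plus strand and that of Mt2 chr8:94172368-94172617 on the plus strand. Capitals mark matches, on either strand, to the motifs searched.
Trim63: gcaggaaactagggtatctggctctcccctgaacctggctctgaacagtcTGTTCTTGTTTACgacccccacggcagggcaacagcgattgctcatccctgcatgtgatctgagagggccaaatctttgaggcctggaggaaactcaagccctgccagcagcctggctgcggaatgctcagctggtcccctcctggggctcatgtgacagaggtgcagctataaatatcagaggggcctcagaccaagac
Ddit4: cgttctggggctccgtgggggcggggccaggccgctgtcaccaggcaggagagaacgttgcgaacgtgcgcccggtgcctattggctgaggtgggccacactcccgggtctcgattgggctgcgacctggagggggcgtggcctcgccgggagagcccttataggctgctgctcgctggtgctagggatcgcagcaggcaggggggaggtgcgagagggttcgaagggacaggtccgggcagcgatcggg
Klf15: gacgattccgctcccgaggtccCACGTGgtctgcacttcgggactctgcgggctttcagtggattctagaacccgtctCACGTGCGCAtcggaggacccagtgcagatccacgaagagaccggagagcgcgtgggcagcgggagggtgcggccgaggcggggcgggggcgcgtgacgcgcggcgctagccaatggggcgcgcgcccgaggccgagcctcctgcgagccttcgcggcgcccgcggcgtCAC
Mt2: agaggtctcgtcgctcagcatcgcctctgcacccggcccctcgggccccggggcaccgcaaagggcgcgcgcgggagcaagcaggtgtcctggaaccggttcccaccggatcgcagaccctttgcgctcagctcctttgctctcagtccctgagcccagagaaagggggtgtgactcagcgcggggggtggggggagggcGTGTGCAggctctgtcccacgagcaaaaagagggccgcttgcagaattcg

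The motifs were searched in 250 bases before and 50 bases after the start, on both strands, in 10 windows of 9 members (Cdkn1a has 2 starts and Fbxo32 had no entry) and in 32851 promoters. The FoxO core GTAAACA was in 3.65% of all promoters and, of the members, in Trim63, on the minus strand from -194. The glucocorticoid receptor half-site AGAACA was in 19.0% of all promoters and, of the members, in Trim63 from -200, also on the minus strand, where it directly adjoins the FoxO core. AGAACA followed 3 bases later by TGTTCT was in 0.00913% of all promoters and in no member window. The strings TGCACAC and TGCGCAC, which are some of the forms of the metal response core and the only ones searched, were in 7.96% of all promoters and in those of Mt2, from -50 and from 5, and Klf15, from -169. The E-box CACGTG was in 7.15% of all promoters and in those of Fkbp5, from -169, and Klf15, from -228, -172 and -3. The middle E-box of Klf15 overlaps its match to these strings, and the last one runs past the start site. The Ddit4 window held none of these letters. A match is a description of the letters and not a binding site.

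On the high-fructose diet, both ubiquitin ligases and Ddit4 had the largest differences between genotypes among the members. Trim63 was at 452, 357, 201 and 243 FPKM in the HFrD ChMKO libraries and at 195, 110, 150 and 119 FPKM in HFrD F/F. Every ChMKO library was above every F/F library, the closest being 201 against 195. The means were 313 ± 114 and 144 ± 38.4 FPKM (SD, n = 4), a 2.18-fold difference.

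Ddit4, which encodes an inhibitor of mTORC1, was at 82.2, 78.1, 83.5 and 95 FPKM in HFrD ChMKO. In HFrD F/F it was at 62.3, 31.4, 50.8 and 26.3 FPKM. The 4 knockout libraries lay close together and above all the F/F libraries, which were spread over a wide range. The means were 84.7 ± 7.26 and 42.7 ± 16.8 FPKM (SD, n = 4), a 1.98-fold difference. Fbxo32 was at 163, 227, 87.2 and 133 FPKM in HFrD ChMKO and at 101, 74.8, 82.1 and 51.7 FPKM in HFrD F/F. Here the groups overlapped, since 1 knockout library was below the highest F/F library.

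Cdkn1a, the cyclin-dependent kinase inhibitor p21, was at 9.03, 8.88, 7.27 and 5.27 FPKM in HFrD ChMKO and at 4.49, 3.25, 4.13 and 5.96 FPKM in HFrD F/F. The groups overlapped by 1 library of each. On the scale of log2(FPKM + 1), the ChMKO mean exceeded the F/F mean by 1.09 for Trim63, 1.05 for Ddit4, 0.93 for Fbxo32 and 0.66 for Cdkn1a. The differences were 0.47 for Fkbp5, 0.38 for Gadd45a, 0.31 for Foxo1, 0.23 for Klf15 and 0.21 for Foxo3. The 9 members were thus all on one side, with the 3 transcription factors nearest to 0. The median of all genes was -0.008. Before rescaling, 9 of 9 members were also higher in ChMKO in Hypo, and 5 of 9 in Norm. On chow 9 of 10 were higher in ChMKO in SOL and 7 of 10 in GC. Of all 10515 genes tested in this contrast by limma, 0.019% passed an adjusted p of 0.05. Since the contrast chose the list, nothing is read from the members beside it. Mt1, the close relative of Mt2, was at 13 to 20.7 FPKM in HFrD ChMKO and at 6.43 to 11.5 FPKM in HFrD F/F. The clock gene Dbp was at 5.04, 1.91, 7.59 and 4.40 FPKM in these ChMKO libraries and at 6.63, 9.26, 11.4 and 7.12 FPKM in F/F. The part of sampling time in the differences was not tested.

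**Figure D1:**
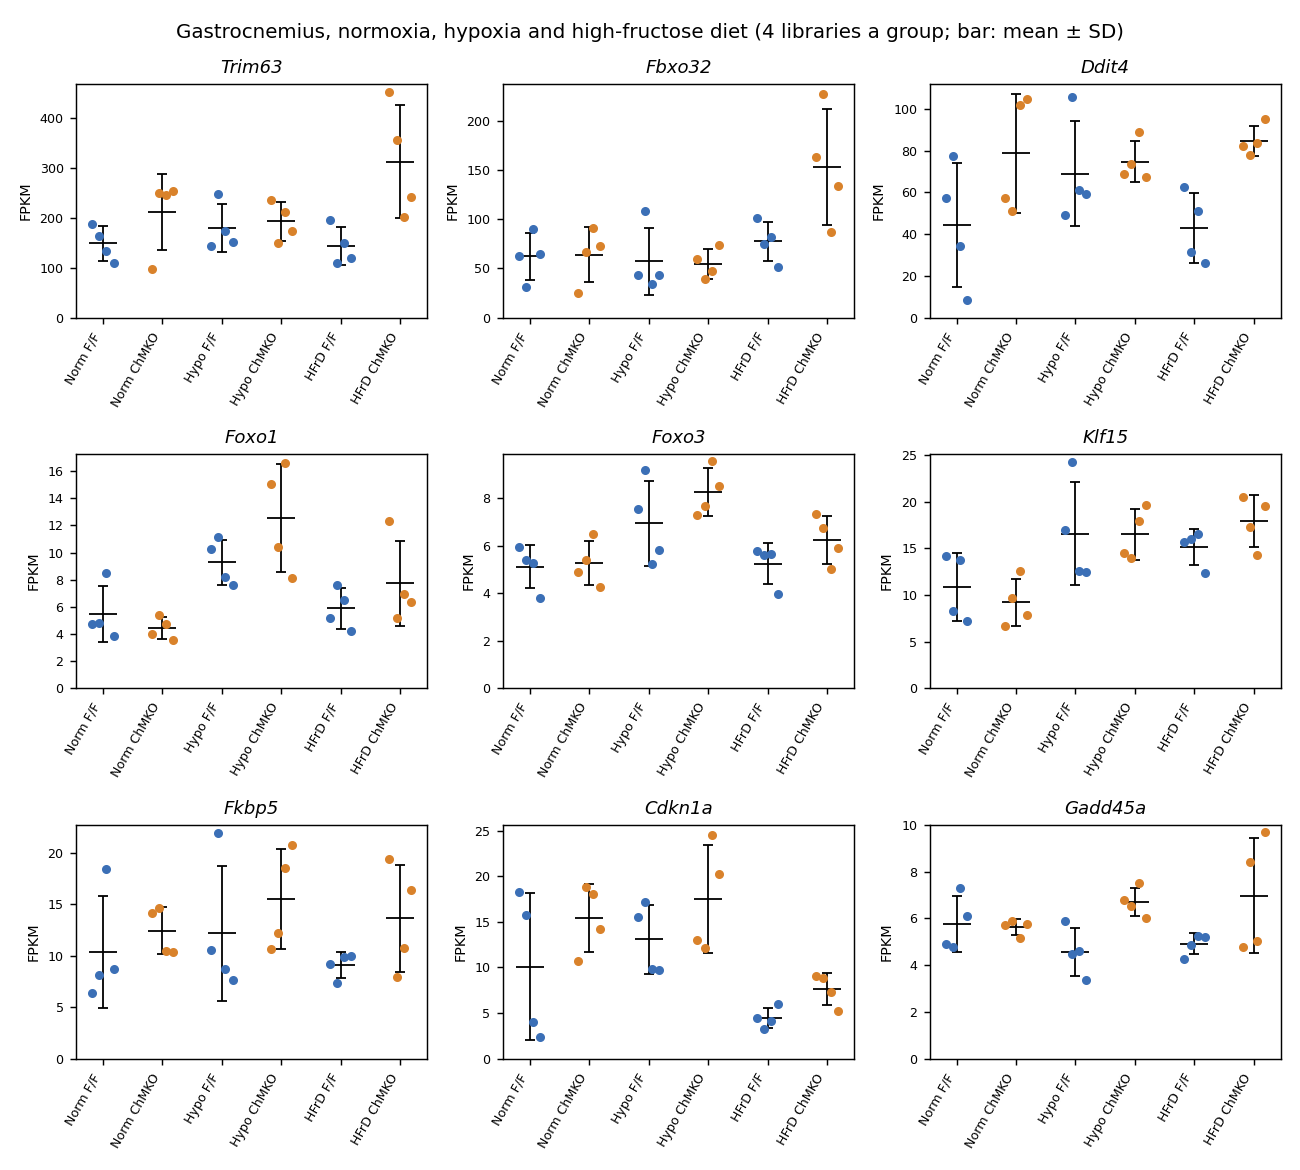
FPKM of the members (one panel each, y axis in FPKM from 0) in the 6 GC groups of normoxia, hypoxia and high-fructose diet. Points are libraries, 4 a group, and bars are the mean ± SD. Trim63 and Ddit4 of HFrD ChMKO lie above all HFrD F/F libraries, and Foxo1 of Hypo ChMKO lies above all Norm ChMKO libraries.

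HFrD was then compared with Norm within each genotype. Foxo1, Klf15 and Fbxo32 rose and Cdkn1a fell in ChMKO muscle. Their differences in F/F had the same signs and did not pass. Whether the difference between HFrD and Norm depended on genotype was not tested. Ddit4 and Trim63, picked on the HFrD libraries, are described only, so 7 members were tested. The 7 belong to a list chosen on the same HFrD libraries, so these tests are not independent of that choice. In ChMKO 4 of these 7 passed an adjusted p of 0.05 in limma, against 64% of all 10733 genes tested, a share near that of the members. In F/F none of the 7 passed, as did 0% of the 10707 genes tested. At an unadjusted p under 0.05 there were 1 of 7 members, Klf15, and 2531 genes in all, and a voom fit on the recovered reads also called none. With all groups in one fit 220 genes were called (17 higher and 203 lower), and without the Norm F/F library with Ddit4 at 77.5 FPKM 8 were.

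Klf15, a zinc finger factor that drives amino acid breakdown, was at 6.70, 9.72, 12.6 and 7.80 FPKM in Norm ChMKO and at 20.5, 17.3, 14.2 and 19.6 FPKM in HFrD ChMKO. Every HFrD library was above every Norm library. The log2 difference was 0.91 ± 0.174 (SE, limma adjusted p = 0.00147). For F/F it was 0.49 ± 0.211 (adjusted p = 0.209).

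Fbxo32 was at 24.9, 66.4, 91.1 and 72.4 FPKM in Norm ChMKO, before the HFrD values of 87.2 to 227 FPKM given above. The groups met at their edges, with 1 HFrD library below the highest Norm library. This was a log2 difference of 1.31 ± 0.401 in ChMKO (SE, limma adjusted p = 0.0177) and 0.36 ± 0.312 in F/F (adjusted p = 0.44), where it was 0.07 to 0.57 when 1 library was left out (0.07 without the Norm library with Ddit4 at 77.5 FPKM). Foxo1 was at 4.01, 5.38, 4.77 and 3.57 FPKM in Norm ChMKO and at 12.3, 5.20, 6.97 and 6.38 FPKM in HFrD ChMKO. It overlapped by a small margin, and 1 HFrD library was far above the others. On the log2 scale the difference was 0.63 ± 0.214 (SE, limma adjusted p = 0.0271); without Norm ChMKO library 370 or 380 the adjusted p was 0.0585 and 0.0653, and without the filter on low values it was 0.051. Without the HFrD library at 12.3 FPKM the difference was 0.41.

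Cdkn1a was at 10.7, 18.8, 18.1 and 14.2 FPKM in Norm ChMKO and fell to between 5.27 and 9.03 FPKM in HFrD ChMKO. No HFrD library reached the lowest Norm library. The log2 difference was -0.93 ± 0.194 (SE, limma adjusted p = 0.00251). With all 6 groups in one fit the adjusted p was 0.0562. In Norm F/F the gene was at 18.3 and 15.7 FPKM in 2 libraries and at 4.03 and 2.33 FPKM in the others, a split that gave a wide error in F/F (log2 difference -0.67 ± 0.535, adjusted p = 0.408). Dbp was at 2.33 and 4.04 FPKM in the former libraries and at 10.3 and 13.4 FPKM in the latter. The part of sampling time was not tested.

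Foxo3, Fkbp5 and Gadd45a did not pass in either genotype. Foxo3 differed by 0.21 ± 0.127 on the log2 scale in ChMKO (limma, adjusted p = 0.17), Fkbp5, a chaperone partner of the glucocorticoid receptor, by 0.06 ± 0.244 (adjusted p = 0.829), and Gadd45a, a growth arrest and DNA damage gene, by 0.21 ± 0.188 (adjusted p = 0.337). As a description, Trim63 differed by 0.59 and Ddit4 by 0.17 between HFrD and Norm in ChMKO, and by -0.06 and 0.23 in F/F. Without Norm ChMKO library 370 Trim63 differed by 0.26, and in F/F it was at 0.06 after rescaling. Ddit4 in F/F was at -0.40 to 0.62 when 1 library was left out. In ChMKO the Ddit4 difference was 0.41 after rescaling and -0.005 at its lowest over the settings. Ddit4 of ChMKO was at 51.2 to 105 FPKM in Norm.

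HFrD and Norm libraries also differed as a whole. The median of all genes was -0.17 on the log2 scale in ChMKO and -0.10 in F/F, and rescaling by the median ratio moved it to 0.00 and -0.01. The split of all genes called in ChMKO was 2078 higher and 4790 lower, and 3153 higher and 2424 lower after rescaling. The members called kept their direction there, with log2 differences of 1.13 for Klf15, 1.54 for Fbxo32, 0.83 for Foxo1 and -0.71 for Cdkn1a, and Foxo3 passed too (0.41, limma, adjusted p = 0.0176). All 5 myofiber markers were detected, with sums of 24808 to 25795 FPKM in HFrD ChMKO and 36645 to 43954 FPKM in Norm ChMKO. The 4 fibroblast markers summed to 120 to 144 FPKM and 214 to 426 FPKM, and the 3 endothelial markers to 35.6 to 42.4 FPKM and 68.7 to 78.6 FPKM. The 4 macrophage markers were all called lower, with sums of 28.1 to 41.6 FPKM and 45.7 to 103 FPKM, as were the 4 red blood cell markers, with 61.5 to 190 FPKM and 215 to 403 FPKM. The 3 slow fiber markers summed to 32.8 to 136 FPKM and 2.87 to 80.2 FPKM, with 1 called higher. After rescaling 2 of 4 macrophage, 3 of 4 red blood cell, 2 of 4 fibroblast and 3 of 3 endothelial markers were called lower. No marker of these lists was at 0 in a whole group. The part of these shifts in the members' differences was not tested.

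The genes called in the pathway lists under HFrD in ChMKO lay in both directions. These counts stand beside the 64% of all genes called in the comparison, and nothing is read as particular to a list. Of 20 other FoxO targets and insulin signalling genes, 6 rose and 5 fell, with a median log2 difference of 0.07 beside -0.17 for all genes. After rescaling 10 rose and 3 fell. Cited2 (1.45) and Mstn, the muscle growth inhibitor myostatin (0.76), rose, and Foxo6 (-1.05) fell, under both scalings. Of 19 glucocorticoid receptor genes 6 rose and 3 fell (10 and 2 after rescaling); Tfcp2l1 (0.85), glutamine synthetase Glul (0.80) and Zbtb16 (0.79) rose, while Tsc22d3 (GILZ), a classic glucocorticoid target, fell (-0.77). Of 20 ubiquitin ligase and proteasome genes 5 rose and 6 fell (6 and 1 after rescaling); the ligase Fbxo30 (0.98) and Zfand5 (0.65) rose and the proteasome subunit Psmc4 (-0.38) fell. Of 17 autophagy genes 4 rose and 9 fell (6 and 4 after rescaling), among them Bnip3 (0.34) and Map1lc3a (-0.77). Of 18 tested genes of p53, ATF4 and denervation 5 rose and 7 fell (6 and 2 after rescaling), with Chac1 (1.55), Eda2r (1.08) and Trp53inp1 (1.03) higher and Phlda3 (-0.62) lower. Of 15 tested clock genes 5 rose and 4 fell (7 and 3 after rescaling), with Nr1d2 (1.18) higher and Bmal1 (-0.75) lower. Foxo4 (-0.12) did not pass (limma, adjusted p = 0.107), and Gadd45b (-0.72, adjusted p = 0.0102) did not after rescaling (-0.51, adjusted p = 0.06). No gene of these lists passed in F/F.

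In hypoxia, set against the same Norm libraries as HFrD, Foxo1 rose in ChMKO muscle. Foxo1 was at 15.1, 10.4, 16.6 and 8.11 FPKM in Hypo ChMKO and at 3.57 to 5.38 FPKM in Norm ChMKO, with no overlap. This was a log2 difference of 1.28 ± 0.20 (SE, limma adjusted p = 0.0268), and it was the 1 member of 9 that passed, against 0.89% of 10676 genes. That background of 95 genes was 6 without a filter on low values, 213 with all groups in one fit and 10 to 129 when 1 library was left out, with 10 both without the Norm library at 5.38 FPKM and without the Hypo library at 15.1 FPKM. The adjusted p was above 0.05 without any of the 4 Norm ChMKO libraries and without either of the Hypo ChMKO libraries with the most Foxo1, at 0.0518 to 0.0825, with log2 differences of 1.14 to 1.36.

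In F/F, Foxo1 was at 10.2, 11.1, 8.23 and 7.58 FPKM in Hypo and at 4.76, 4.78, 8.48 and 3.88 FPKM in Norm. 1 Norm library lay within the Hypo range and the others lay below it. On the log2 scale the difference was 0.70 ± 0.212 (SE, limma adjusted p = 1). None of the 9 members passed in F/F and 0% of the 10740 genes did. 1 member, Foxo1, and 411 genes had an unadjusted p under 0.05, and voom called none.

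Klf15 and Foxo3 missed the threshold in both genotypes. Klf15 was at 14.5, 13.9, 18 and 19.6 FPKM in Hypo ChMKO, all above the 6.70 to 12.6 FPKM of Norm ChMKO, with a log2 difference of 0.80 ± 0.175 (SE, limma adjusted p = 0.0689). Foxo3 was at 7.31, 7.68, 9.58 and 8.52 FPKM in Hypo ChMKO and at 4.91, 5.39, 6.50 and 4.27 FPKM in Norm ChMKO, again apart, with 0.57 ± 0.123 (SE, limma adjusted p = 0.0679). Both passed when the libraries were rescaled by the median ratio (adjusted p = 0.0472 and 0.0411). In F/F the differences were 0.57 ± 0.271 for Klf15 and 0.36 ± 0.181 for Foxo3 (SE, limma adjusted p = 1 for both). The ubiquitin ligases differed in ChMKO by -0.06 ± 0.287 for Trim63 and -0.11 ± 0.35 for Fbxo32 (SE, limma adjusted p = 0.962 and 0.929). Over other settings and with 1 library left out, the ranges were -0.39 to 0.06 and -0.50 to 0.11. For Ddit4 the difference there was -0.01 ± 0.225 (SE, limma adjusted p = 0.992).

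A test of the difference in the hypoxia effect between genotypes called no member. 0 of 9 passed in limma, and 0% of 10751 genes did. 1 member, Gadd45a, and 132 genes had an unadjusted p under 0.05, and a voom fit also called no member. The difference of the 2 effects was 0.58 ± 0.314 for Foxo1 and 0.50 ± 0.192 for Gadd45a (log2, SE, limma adjusted p = 1 for both).

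For hypoxia in ChMKO, beside the 0.89% of all genes called, 3 of 20 other FoxO and insulin genes, 2 of 19 glucocorticoid receptor genes, 1 of 20 ubiquitin ligase and proteasome genes and 4 of 15 clock genes passed, and 0 of 17 autophagy genes and 0 of 18 p53, ATF4 and denervation genes did, by limma (4 and 5 at an unadjusted p under 0.05). Nothing is read as particular to a list. Sesn1, a stress-induced inhibitor of mTORC1 signalling and a FoxO target counted in both of the first lists, rose by 0.94 (log2), and the clock and glucocorticoid gene Per1 by 0.86. Foxo6 (-0.99) and Igf1 (-0.80) fell. Igf1 had an adjusted p of 0.0579 after rescaling. Of 15 tested clock genes Nr1d2 rose (0.66) and Bmal1, Cry1 and Bhlhe41 fell (-0.86, -0.86 and -0.66). Bmal1 was at 2.52 to 2.86 FPKM in Hypo ChMKO and at 4.93 to 6.66 FPKM in Norm ChMKO. The 4 red blood cell markers, all detected, summed to 314 to 839 FPKM and 215 to 403 FPKM. The 3 slow fiber markers summed to 47.2 to 367 FPKM in Hypo ChMKO and 2.87 to 80.2 FPKM in Norm ChMKO, with a median log2 difference of 2.75 (2.29 in F/F) and 0 of 3 called in limma in either genotype, though all 3 had an unadjusted p under 0.05 in both. The part of sampling time, blood and slow fibers in the Foxo1 difference was not tested.

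Between genotypes, no member passed in normoxia or hypoxia. In Norm, 0 of 9 members had an adjusted p under 0.05 in limma, against 0.00922% of 10848 genes, and 0 had an unadjusted p under 0.05, beside 1207 genes in all. Ddit4 was at 57.2, 51.2, 102 and 105 FPKM in Norm ChMKO and at 57.3, 77.5, 34.3 and 8.50 FPKM in Norm F/F. Both groups were widely spread and overlapped, with a log2 difference of 1.11 ± 0.601 (SE, limma adjusted p = 0.424). Without the F/F library at 8.50 FPKM the difference was 0.48. Trim63 was at 98.3, 249, 246 and 254 FPKM in Norm ChMKO and at 188, 164, 134 and 109 FPKM in Norm F/F. Library 370 was lower than every F/F library while the other 3 knockout libraries were higher, so that the difference was 0.44 ± 0.316 (SE, limma adjusted p = 0.497), or 0.77 without library 370.

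In Hypo, 0 of 9 members passed, against 0.00941% of 10628 genes, and Gadd45a had an unadjusted p under 0.05, beside 560 genes in all. That count of genes was 196 without Hypo ChMKO library 340 and 2119 with all groups in one fit. Gadd45a was at 6.77, 6.53, 7.50 and 6.01 FPKM in Hypo ChMKO and at 5.88, 4.46, 4.60 and 3.35 FPKM in Hypo F/F. The groups did not overlap, with a log2 difference of 0.48 ± 0.144 (SE, limma adjusted p = 0.532). Trim63 and Ddit4, which stood apart on HFrD, differed by 0.12 ± 0.207 and 0.17 ± 0.218 in hypoxia (SE, limma adjusted p = 0.76 and 0.685). Rescaling by the median ratio moved the median of all genes from 0.08 to -0.03 in this comparison, and Trim63 to -0.04. A voom fit called no member in either condition.

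Mt2 was at or near 0 in all 24 libraries of the stress table. It was listed at 0 in 15 of them, its highest value was 0.184 FPKM, which is 2 reads, and all libraries together held 11 reads. Mt1, its neighbour and relative, was at 4.14 to 36.8 FPKM in the same libraries. In the chow table, normalised separately and built on other gene models, Mt2 was at 12.5 to 63.9 FPKM. No fold or test is given for Mt2 in the stress table.

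On chow no member passed between the genotypes in GC. 0 of 10 members had an adjusted p under 0.05 in limma, against 0.0236% of 12724 genes, and 4 had an unadjusted p under 0.05, Cdkn1a, Fkbp5, Mt2 and Trim63, beside 589 genes in all. Mt2, a metal-binding protein, was at 59.7, 58.3, 63.9, 25.0 and 53 FPKM in GC of ChMKO and at 12.5, 12.8, 39.1, 17.7 and 30.2 FPKM in GC of F/F. Library 72 was the 1 knockout library within the F/F range. The log2 difference was 1.25 ± 0.339 (SE, limma adjusted p = 0.654).

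Fkbp5 was at 5.50, 8.06, 7.03, 6.77 and 8.55 FPKM in GC of ChMKO and at 3.45, 4.37, 4.94, 5.15 and 6.06 FPKM in GC of F/F. It overlapped by 1 library of each, and differed by 0.50 ± 0.133 (SE, limma adjusted p = 0.628). Trim63 was at 187 to 244 FPKM in ChMKO and 120 to 202 FPKM in F/F, a difference of 0.39 ± 0.137 (SE, limma adjusted p = 1). Ddit4 was at 95, 130, 170, 121 and 132 FPKM in ChMKO and at 18.4, 31.8, 147, 127 and 130 FPKM in F/F. Only the F/F libraries 57 and 58 were low, and the difference was 0.89 ± 0.527 (SE, limma adjusted p = 1), or 0.43 without library 57 and 0.62 without library 58. The same libraries had Per1 at 7.63 and 12.4 FPKM beside 22.0 to 26.7 FPKM in the other F/F libraries of GC. Dbp was at 5.43 and 5.06 FPKM in them and at 8.61 to 29.0 FPKM in the other F/F libraries. In GC of ChMKO, where Ddit4 was not low, Dbp was at 4.82 to 10.6 FPKM. The part of sampling time was not tested.

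In SOL, 0 of 10 members passed, against 0.0225% of 13348 genes, and 5 had an unadjusted p under 0.05, Cdkn1a, Ddit4, Fkbp5, Foxo1 and Mt2, beside 1300 genes in all. Mt2 was at 35.0, 50.1, 55.5, 42.3 and 34.9 FPKM in SOL of ChMKO and at 13.1, 20.8, 37.4, 34.7 and 24.8 FPKM in SOL of F/F. The groups overlapped between 34.9 and 37.4 FPKM, with a log2 difference of 0.78 ± 0.252 (SE, limma adjusted p = 0.415). Fkbp5 was at 4.82 to 6.15 FPKM in ChMKO and at 2.93 to 4.82 FPKM in F/F, a difference of 0.44 ± 0.107 (SE, limma adjusted p = 0.294). The GC and SOL values are given side by side, as both muscles may come from the same mice. A fit with the library number as a random effect gave no member whose genotype difference depended on the muscle, 0 of 10 against 0.00759% of 13176 genes, with 0 members and 789 genes at an unadjusted p under 0.05.

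**Figure D2:**
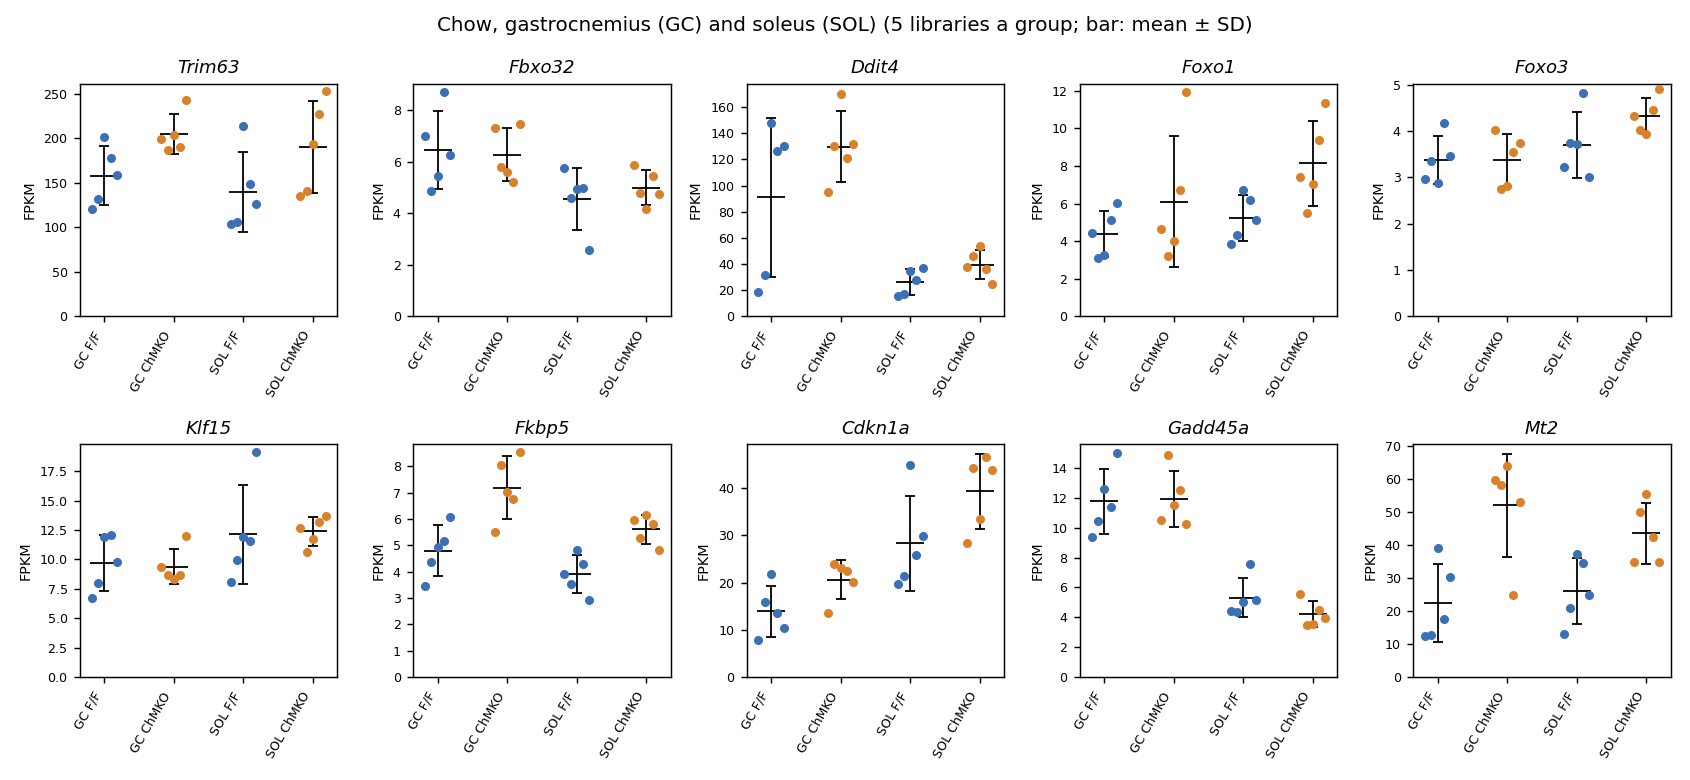
FPKM of the 10 members (one panel each, y axis in FPKM from 0) in both muscles and genotypes on chow. Points are libraries, 5 a group, and bars are the mean ± SD. Gadd45a separates the muscles in both genotypes and Cdkn1a, in the opposite direction, in ChMKO only, and Ddit4 of 2 GC F/F libraries lies near the SOL level.

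The muscles differed more than the genotypes. Gadd45a was lower and Cdkn1a higher in SOL than in GC in both genotypes. In F/F 2 of 10 members passed, against 50.4% of 13235 genes, and in ChMKO 7 of 10, against 57.9% of 13080 genes. Gadd45a was at 9.39, 10.4, 12.6, 11.4 and 15 FPKM in GC of F/F and at 4.45, 4.37, 5.03, 7.59 and 5.17 FPKM in SOL of F/F, with no overlap. Its log2 difference was -1.02 ± 0.148 in F/F and -1.31 ± 0.121 in ChMKO (SE, limma adjusted p = 0.000239 and 3.69e-06).

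Cdkn1a was at 7.95, 15.9, 21.9, 13.6 and 10.4 FPKM in GC of F/F and at 19.7, 21.3, 44.9, 25.8 and 29.8 FPKM in SOL of F/F. In ChMKO it was at 13.6, 24, 23.0, 22.5 and 20.1 FPKM in GC and at 28.3, 44.2, 33.4, 46.6 and 43.8 FPKM in SOL. The muscles overlapped in F/F, through GC library 69, and not in ChMKO. This was a log2 difference of 0.98 ± 0.267 in F/F and 0.90 ± 0.17 in ChMKO (SE, limma adjusted p = 0.0101 and 0.000855). With the library number as a block 4 members passed in F/F, Ddit4 (adjusted p = 0.00485) and Fbxo32 (0.0462) being added.

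Ddit4 was at 37.5, 46.1, 53.5, 36.1 and 25.1 FPKM in SOL of ChMKO, far below its 95 to 170 FPKM in GC. On the log2 scale the difference was -1.70 ± 0.192 (SE, limma adjusted p = 1.84e-05). In F/F it was at 15.6, 17.3, 34.8, 27.6 and 37.1 FPKM in SOL, where the low GC libraries 57 and 58 widened the error and the difference was -1.41 ± 0.557 (SE, limma adjusted p = 0.0535). Without library 57 or 58 of GC F/F the adjusted p was 0.00685 and 0.0316, with differences of -1.87 and -1.68. Klf15 (0.37) and Foxo3 (0.29) were higher and Fkbp5 (-0.30) and Fbxo32 (-0.28) lower in SOL than in GC of ChMKO on the log2 scale (limma, adjusted p = 0.00651, 0.0184, 0.0264 and 0.0442). The differences of Fkbp5 and Fbxo32 lost the threshold without any of several libraries. Without GC 60 or 74, or SOL 60 or 74, Fkbp5 was at an adjusted p of 0.0554 to 0.0661, and without GC 59, 60 or 74, or SOL 60, 61 or 74, Fbxo32 was at 0.0514 to 0.105. Foxo1 (0.45) and Mt2, which did not pass, did so without GC ChMKO library 74 (0.70, adjusted p = 0.0154) and without GC ChMKO library 72 (-0.44, adjusted p = 0.0179). With all groups in one fit 5 members passed in ChMKO, and Klf15 and Fbxo32 were at an adjusted p of 0.0755 and 0.141. With the library number as a block, Foxo1 passed (0.012) and Fkbp5 did not (0.0656).

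Fbxo32 levels on chow are uncertain. In GC of F/F the gene was at 4.86 to 8.72 FPKM on chow and at 31.3 to 90.1 FPKM in Norm. These sets were normalised separately, and the reason for the gap was not tested. The gene has a second entry on an alternate scaffold in the chow annotation, and reads may be split between the entries. The mean of the second entry was 1.62 FPKM beside 5.57 FPKM for the main entry. With both summed, the difference between SOL and GC was -0.50 in F/F and -0.39 in ChMKO (log2, limma adjusted p = 0.0219 and 0.00819), so the sum passed in F/F where the main entry, at -0.43, did not (adjusted p = 0.0655). The median of all genes was 0.18 in F/F and 0.15 in ChMKO between SOL and GC, and 0.05 and 0.04 after rescaling by the median ratio. The genes called in F/F split into 5013 higher and 1660 lower, and 3354 and 2538 after rescaling; in ChMKO they split into 5359 and 2216, and 3861 and 3206. After rescaling, 5 members passed in F/F, with Ddit4 (-1.58), Fbxo32 (-0.58) and Fkbp5 (-0.38) added, while in ChMKO Foxo3 (0.17, adjusted p = 0.111) no longer passed and Klf15 was at 0.24 (0.0452). Slow fiber markers (Myh7, Tnni1 and Tnnc1) summed to 4549 to 6921 FPKM in SOL and 1.04 to 95.9 FPKM in GC, and adipocyte markers to 281 to 613 FPKM and 131 to 227 FPKM, with no marker at 0 in either list. Their part in the members' differences was not tested.

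Among the pathway lists, which leave out the fiber markers, and beside the 50.4% and 57.9% of all genes called, the muscles differed most for Mstn, at -4.01 in F/F and -4.22 in ChMKO (log2, SOL against GC). Of 20 other FoxO targets and insulin genes 6 were higher and 2 lower in SOL of F/F (4 and 4 after rescaling), and 8 and 3 in ChMKO (8 and 6 after rescaling). Cat, which encodes catalase (1.35 in F/F and 1.49 in ChMKO), and Irs2 (1.32 and 1.12) were higher. Of 19 glucocorticoid receptor genes 2 were higher and 5 lower in F/F (0 and 6 after rescaling), and 3 and 8 in ChMKO (2 and 9 after rescaling). Tsc22d3 (-1.31 and -1.53) and Tfcp2l1 (-1.27 and -1.44) were lower. The mitophagy receptor Bnip3 (1.15 and 1.22) and Gabarapl1 (1.49 and 1.56) were higher, within an autophagy list of 17 that had 5 higher and 5 lower in F/F (5 and 7 after rescaling) and 6 and 6 in ChMKO (5 and 9 after rescaling).

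Among the ubiquitin and proteasome genes 2 of 20 were higher and 5 lower in SOL of F/F (0 and 12 after rescaling), and 3 and 10 in ChMKO (1 and 13 after rescaling); the ligase Asb2 was lower (-0.90 and -0.97). Gadd45g, a relative of Gadd45a, was also lower in SOL (-2.01 and -1.97), as was Chac1 (-2.36 and -2.09), while Atf3 (2.80 and 2.12) and the acetylcholine receptor subunit Chrna1 (1.38 and 1.58) were higher. Their list had 6 higher and 6 lower of 19 tested in F/F, before and after rescaling, and 5 and 7 in ChMKO (4 and 10 after rescaling). Of 16 clock genes 1 was higher and 3 lower in F/F, and 1 and 4 in ChMKO (1 and 5 after rescaling), with Bhlhe41 lower (-1.42 and -1.55).

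No member passed between AAV-ChREBP and AAV-CON. 0 of 9 members passed in limma, against 0.00906% of 11033 genes, and 0 had an unadjusted p under 0.05, beside 319 genes in all. The 1 gene that passed was Mlxipl. Libraries of the 2 arms with the same number (1, 3, 4, 7 and 8) were taken as pairs, and with the number as a block 0 members passed as well. Trim63 was at 57.4, 74.5, 72.3, 43.9 and 124 FPKM in AAV-CON 1, 3, 4, 7 and 8 and at 54.1, 74, 67.2, 46.3 and 118 FPKM in AAV-ChREBP of the same numbers. The ratio of each AAV-ChREBP library to its AAV-CON partner was 0.93 to 1.06, while the numbers differed by up to 2.69-fold.

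Ddit4 was at 1.82, 3.61, 8.84, 1.96 and 13.3 FPKM in AAV-CON and at 2.28, 2.91, 9.30, 2.54 and 15.6 FPKM in AAV-ChREBP. Its pair ratios were 0.81 to 1.3 and the numbers differed by up to 7.04-fold. Fkbp5 was at 11.1, 10.5, 14, 18.7 and 40.6 FPKM in AAV-CON and at 11.5, 11.6, 13.4, 19.7 and 41.1 FPKM in AAV-ChREBP, with pair ratios of 0.96 to 1.10. The spread across numbers was 5.67-fold for Cdkn1a, 4.50-fold for Fbxo32, 3.70-fold for Fkbp5, 2.94-fold for Foxo1, 2.1-fold for Klf15, 1.61-fold for Foxo3 and 1.19-fold for Gadd45a.

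No gene of the pathway lists passed with AAV or between genotypes in any muscle or condition by limma. Number 8 was the highest for 8 of the 9 members by the mean of the pair, and number 4 for Fbxo32. Mlxipl rose in every pair, by 5.12 to 8.89-fold. The clock genes also followed the number. Dbp was at 26.1 to 43.5 FPKM in numbers 1, 3 and 4 and at 5.54 to 6.26 FPKM in numbers 7 and 8, and Bmal1 at 1.90 to 4.23 FPKM and 12.2 to 13 FPKM. The part of sampling time in the members' spread was not tested.

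**Figure D3:**
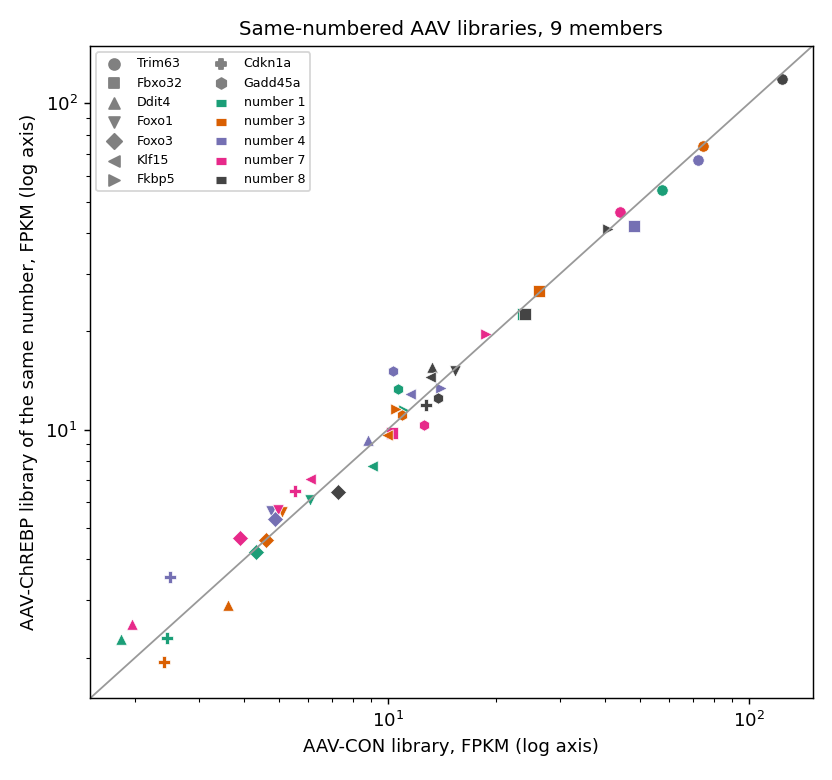
FPKM of 9 members in each AAV-CON library (x axis, log scale) against the AAV-ChREBP library of the same number (y axis, log scale), with the line of equal values. Symbols are genes and colours are library numbers. Points lie along the line, while a gene's points are spread along it, as for Ddit4, with 7.04-fold between numbers.

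In C2C12 cells the libraries of a group lay close together, and 6 of 10 members passed, against 30.5% of 11971 genes. Mt2 and Klf15 fell most, and Klf15, counted among the 6, passed the filter on low values only through its level in the controls. Mt2 was at 588, 555, 451 and 483 FPKM in vector controls and at 305, 318, 298.8 and 270 FPKM in Ch-OE cells. All Ch-OE libraries were well below all controls. The mean was 1.74-fold lower and the log2 difference -0.79 ± 0.0783 (SE, limma adjusted p = 2.51e-05). Mt1 moved alike, from 346 to 481 FPKM down to 224 to 254 FPKM (log2 difference -0.80, adjusted p = 5.76e-05). A fall of both relatives was measured from separate rows of the table. How reads that fit both genes were assigned is not given in the sources used here.

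Klf15 was at 1.31, 1.22, 0.87 and 1.07 FPKM in vector controls and at 0.44, 0.53, 0.62 and 0.39 FPKM in Ch-OE cells. The groups were apart, at levels far below those in muscle. The Ch-OE mean of 0.495 FPKM was under the filter of 0.5 FPKM, so Klf15 entered the main fit only through the controls. It also passed without a filter. The log2(FPKM + 1) difference was -0.50 ± 0.0841 (SE, limma adjusted p = 0.0011), which understates the ratio of so low a gene: the mean was 2.26-fold lower, and adding 0.1 FPKM in place of 1 gave -1.03. Foxo3 was at 15.8, 16.1, 15.8 and 17.5 FPKM in controls and at 13.9, 14.3, 13.9 and 14.2 FPKM in Ch-OE, a small fall of -0.20 ± 0.0389 (log2, SE, limma adjusted p = 0.00304). Foxo1 did not pass, at 4.25 to 4.67 FPKM and 4.15 to 4.41 FPKM (-0.05 ± 0.0458, adjusted p = 0.458).

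Cdkn1a, Fbxo32 and Ddit4 rose by small amounts. Cdkn1a was at 174, 173, 168 and 164 FPKM in controls and at 199, 194, 190 and 187 FPKM in Ch-OE. All Ch-OE libraries were above all controls, by 0.18 ± 0.0297 on the log2 scale (SE, limma adjusted p = 0.00093). Fbxo32 was at 15.2 to 15.9 FPKM in controls and at 16.7 to 17.8 FPKM in Ch-OE, a difference of 0.14 ± 0.0334 (SE, limma adjusted p = 0.00867). Ddit4 was at 33.0 to 36.0 FPKM in controls and at 35.8 to 39.6 FPKM in Ch-OE, where the groups touched, and differed by 0.13 ± 0.0385 (SE, limma adjusted p = 0.0265). It lost the threshold without control 2, 3 or 4 or Ch-OE 1 or 3 (adjusted p = 0.0542 to 0.0729). Trim63 was at 2.12, 2.06, 2.61 and 2.44 FPKM in controls and at 3.47, 2.28, 2.16 and 3.26 FPKM in Ch-OE, spread too widely to pass (0.18 ± 0.113, adjusted p = 0.245). Gadd45a and Fkbp5 differed by 0.10 ± 0.0422 and 0.13 ± 0.0551 (SE, limma adjusted p = 0.0876 and 0.0913); without Ch-OE 1, Fkbp5 differed by 0.17 (adjusted p = 0.0323).

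**Figure D4:**
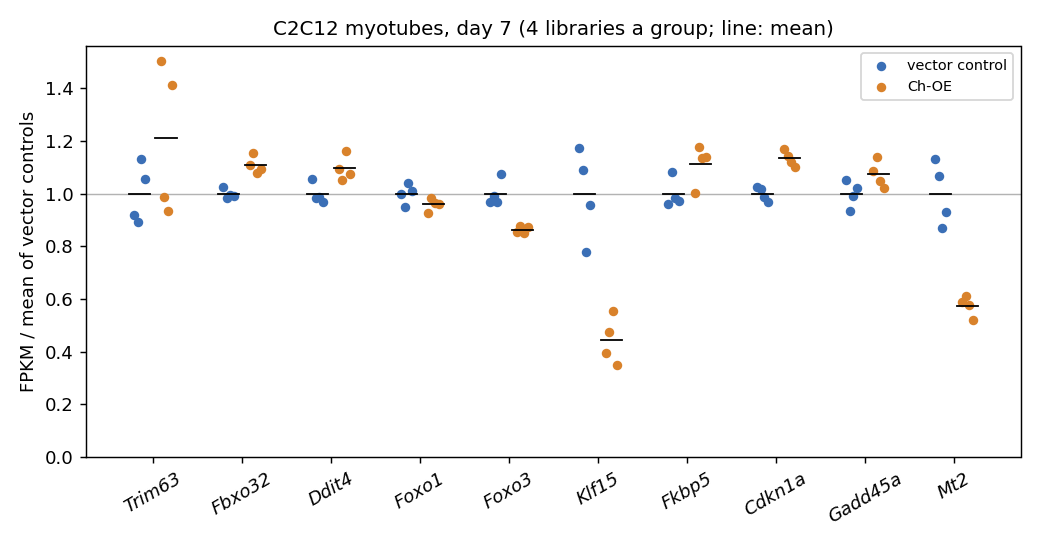
Level of the 10 members in C2C12 cells on day 7, as FPKM divided by the mean of the 4 vector controls (y axis from 0). Points are libraries, 4 a group, and bars are group means. Mt2 and Klf15 of Ch-OE lie well below 1, and Cdkn1a, Fbxo32 and Ddit4 lie slightly above it.

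Of the pathway lists in C2C12 cells, that of p53, ATF4 and denervation genes had the most calls in one direction, with 13 of 20 higher and 1 lower, and a median log2 difference of 0.23 beside 0.00 for all genes, of which 30.5% were called. Chac1 (1.08), Trib3 (0.80) and the myogenic factor Myog (0.67) rose and Ddit3 (-0.33), the stress factor CHOP, fell. Of 17 tested glucocorticoid receptor genes 4 rose and 6 fell; the phosphatase Dusp1 (0.42), Sgk1 (0.33) and Per1 (0.21) rose, and Angptl4 (-0.65) and Pik3r1 (-0.25) fell with Mt1. Gadd45b rose (0.18, limma adjusted p = 0.0148) and Foxo4 did not pass (0.09, adjusted p = 0.0517). Of 17 autophagy genes 3 rose and 5 fell, with Ctsl (0.20) higher and Map1lc3a (-0.42) lower. Of 18 tested ubiquitin ligase and proteasome genes 2 rose, Usp14 (0.19) and Psmd11 (0.15), and 3 fell, among them Fbxo21 (-0.26). Of 19 tested FoxO and insulin genes Eif4ebp1 rose (0.26) and 3 fell, among them Pink1 (-0.30). Of 16 clock genes 4 rose, among them Dbp (0.22), and Npas2 fell (-0.40). The 5 myofiber markers, none at 0, summed to 436 to 483 FPKM in controls and 536 to 577 FPKM in Ch-OE, and the 4 fibroblast markers, also none at 0, to 1214 to 1239 FPKM and 1009 to 1037 FPKM. Their part in the members' differences was not tested.

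**Figure D5:**
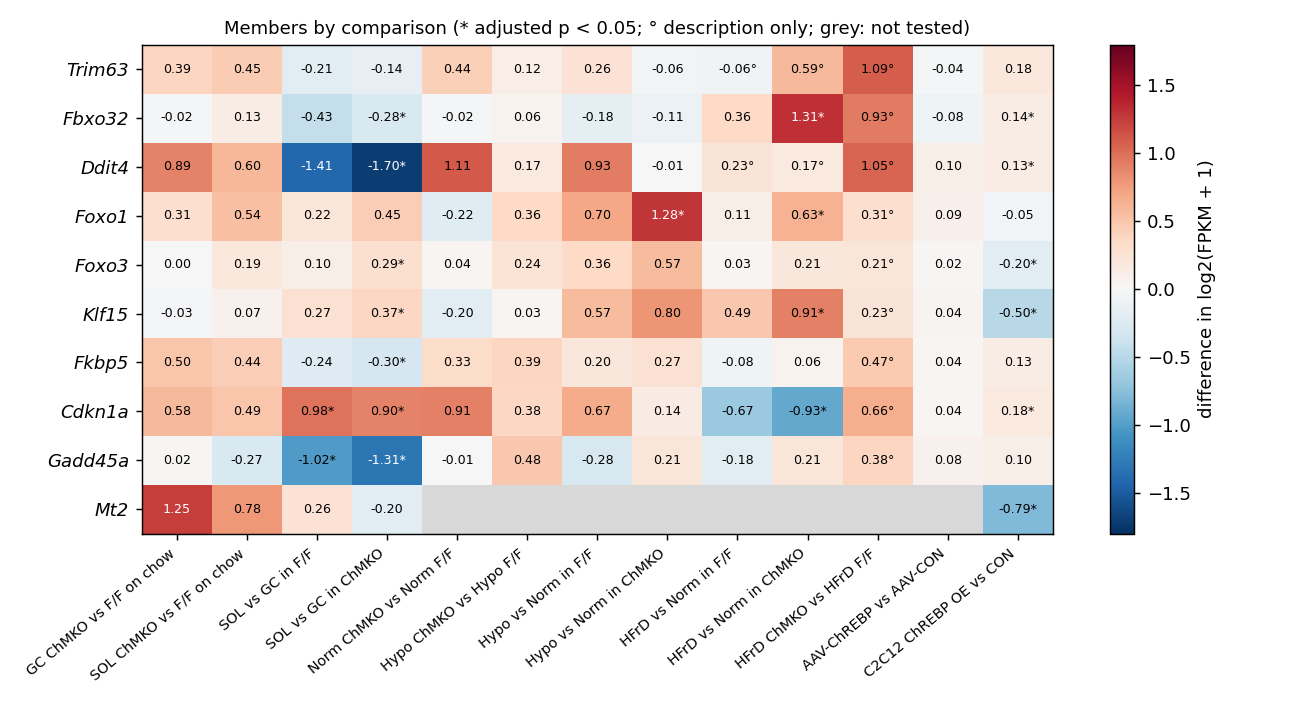
Difference in log2(FPKM + 1) of each member (rows) in each of 13 comparisons (columns), first group against second, as colour and value. A star marks an adjusted p under 0.05, a small circle a value given as a description only, and grey a gene that was not tested. Genotype and AAV columns carry no star. The most stars, 7, are in SOL against GC of ChMKO.

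Trim63 was the highest member in every group of GC and SOL, in tables that were normalised separately, with group means from 72 ± 28.1 FPKM in AAV-ChREBP (SD, n = 5) to 313 ± 114 FPKM in HFrD ChMKO. In C2C12 cells Mt2, Cdkn1a and Gadd45a were the highest, at 519 ± 63.1, 170 ± 4.49 and 108 ± 5.26 FPKM in controls (SD, n = 4), and Trim63 was at 2.31 ± 0.262 FPKM. Among the 6 groups of the stress table Trim63 was highest in HFrD ChMKO, followed by Norm ChMKO (212 ± 75.7), Hypo ChMKO (193 ± 38.8), Hypo F/F (179 ± 48.1), Norm F/F (149 ± 34.4) and HFrD F/F (144 ± 38.4; SD, n = 4 each). Neighbours in this order overlapped in their libraries. Trim63 and Ddit4 were picked on the HFrD libraries, so the places of the HFrD groups in their orders are described only. For Ddit4 the order was HFrD ChMKO, Norm ChMKO (78.7 ± 28.4), Hypo ChMKO (74.7 ± 9.67), Hypo F/F (68.8 ± 25.2), Norm F/F (44.4 ± 29.7) and HFrD F/F, with neighbours that overlapped in their libraries.

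Within the 24 stress libraries, the genes most like 4 of the members were sought by Pearson r of log2(FPKM + 1) after the group mean was taken off, among 4498 genes averaging 5 FPKM or more. The values are a description over libraries of one table, which share its processing and can share depth and time of sampling. Trim63 was most like Pdk4, a FoxO target that inhibits pyruvate dehydrogenase (r = 0.77), Klhl38 (0.76) and Pik3c3 (0.69). For Ddit4 they were Cebpb (0.80), the kinase Sgk1 (0.80) and Gsr (0.78), and the first pair are glucocorticoid targets of the list used here. Klf15 was most like Eif4ebp1 (0.88), Specc1l (0.85) and Sorbs3 (0.85), and Cdkn1a most like Tmem182 (0.86), Mrpl44 (0.86) and Mtmr3 (0.85). Across these libraries Ddit4 ranged 12.4-fold, Cdkn1a 10.5-fold and Fbxo32 9.15-fold from the lowest to the highest library, and Foxo3, the narrowest, 2.51-fold.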

How the data were processed

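Libraries were sequenced on an Illumina instrument after TRIzol extraction. The FPKM values were made and deposited by the authors. The submitters' processing notes name fastp 0.18.0, Bowtie2 2.2.8, HISAT2 2.1.0, StringTie 1.3.1, RSEM and GRCm39, while the chow table carries GRCm38 coordinates. Replicates were not pooled. That the AAV and C2C12 values are FPKM was inferred from the methods, and the authors' own comparison in the AAV table (fold changes and p-values) was not used.

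The members and pathway lists were chosen with earlier results of these data known. limma 3.58.1 in R 4.3.3 was run on log2(FPKM + 1) for genes averaging 0.5 FPKM or more over the libraries of the groups compared, two-sided, with Benjamini-Hochberg adjustment over all genes tested and a threshold of 0.05. The script was tested on simulated data. Whole reads came out of the stress table for 99.79 to 99.89% of values within 0.01 read. Adding 1 FPKM understates the changes of low genes.

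Named were all members, per pathway list up to 3 called genes in each direction by size, close relatives (Mt1, Foxo4, Gadd45b, Gadd45g, Tsc22d3), Mlxipl, clock genes, and the 3 genes most like 4 members. Some genes of the lists are not reported here. The deviations of same-numbered AAV libraries correlated at 0.606, 0.21, 0.276, 0.621 and 0.635 over 5340 genes, so the numbers were taken as pairs, although number 4 reached 0.491 with a library of another number. The labels do not say whether they are the legs of one mouse.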

Additional observations from a re-analysis of the deposited data

Results flagged for a closer look

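In 11 of the 132 sets of a member in a group, the highest or lowest library stood apart from the others by Dixon's ratio of its gap to the whole range. Chance flags about 1 in 20 such sets if values are independent and normally distributed. FPKM values and the paired AAV libraries need not be, so the count is not read against that rate. No member had all libraries of 1 genotype moving one way and all of the other the opposite way.

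Library 8 of both AAV arms was involved 5 times. In AAV-CON, Foxo1 was at 15.3 FPKM against 4.75 to 6.08 FPKM (ratio 0.874), Fkbp5 at 40.6 FPKM against 10.5 to 18.7 FPKM (0.728) and Foxo3 at 7.29 FPKM against 3.9 to 4.89 FPKM (0.71). In AAV-ChREBP, Foxo1 was at 15.1 FPKM against 5.58 to 6.1 FPKM (0.946) and Fkbp5 at 41.1 FPKM against 11.5 to 19.7 FPKM (0.723).

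On chow, Mt2 of GC ChMKO library 72 was at 25 FPKM against 53 to 63.9 FPKM (0.72), Klf15 of GC ChMKO library 74 at 11.9 FPKM against 8.32 to 9.32 FPKM (0.726) and Gadd45a of SOL F/F library 70 at 7.59 FPKM against 4.37 to 5.17 FPKM (0.75).

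In the stress table, 1 Norm ChMKO library had Trim63 at 98.3 FPKM against 246 to 254 FPKM (0.946). Another, of Hypo F/F, had Fbxo32 at 108 FPKM against 34.3 to 43 FPKM (0.882). In HFrD F/F, Foxo3 was at 3.96 FPKM in 1 library against 5.62 to 5.79 FPKM (0.904).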

How the results depend on the processing

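Alternatives were another pseudocount (0.1 FPKM), a filter at 5 FPKM, no filter, rescaling by the median ratio, all groups of a table in one fit, voom on recovered reads, the replicate block and leaving out each library. Summing entries of one symbol was added after seeing the data. Of 2060 member differences tested under these settings, 32 lost the threshold and 19 gained it. Of those called with or without the change of setting, 0 turned sign, while 118 called in neither did, such as Fbxo32 (0.06 to -0.10) and Klf15 (0.03 to -0.12) between genotypes in Hypo after rescaling. Between SOL and GC of F/F, 2 members passed, but 5 after rescaling, 4 with all groups in one fit, 4 with the replicate block and 2 to 4 when 1 library was left out (4 without GC F/F library 58). Between Hypo and Norm of ChMKO, 1 passed, but 0 without a filter, 3 after rescaling and 0 to 1 when 1 library was left out. The cause was not tested.

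With the library number as a replicate block, 7 members passed between SOL and GC of ChMKO (7 without the block) and 6 in C2C12 cells (6 without). Over all genes the counts went from 6673 to 6467 in F/F, 7575 to 7266 in ChMKO and 3647 to 3357 in C2C12 cells. Same-numbered GC and SOL libraries correlated at -0.117 to 0.38 in F/F and at -0.00353 to 0.0999 in ChMKO, and C2C12 arms at -0.111 to 0.182. In F/F 4 of 5 numbers were above 0.1 and in ChMKO none. The labels do not say whether a number names a mouse, so the fit without the block was kept. 1 SOL F/F library is labelled 59 where its column says 69. For AAV the block changed no call. Depth outside the stress table is unknown.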
